A study of Mus musculus with 2 samples.

Results

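The cells described here were 251 lung endothelial cells chosen by their counts of Ednrb and Apln, the genes for endothelin receptor type B and for the peptide apelin. Counts are of unique molecular identifiers (UMIs), each of which stands for 1 captured RNA molecule. A lung cell was called endothelial when its UMIs of the endothelial junction genes Cldn5, Pecam1 and Cdh5 summed to at least 5. This sum, called E here, also had to exceed the summed UMIs of the pericyte genes Cox4i2, Higd1b, Fam162b and Pdgfrb and those of the fibroblast genes Npnt, Tcf21, Inmt and Col13a1. At most 1 UMI of the cell cycle genes Mki67 and Top2a was allowed, and Ednrb and Apln together had to reach 2 UMIs. The rule took 251 of 563 lung endothelial cells (44.6%, 95% interval 40.4 to 48.8) and of 5608 kept lung cells (4.48%, 3.95 to 5.05). The series held 9759 kept cells among 10621 barcodes in all. The selected cells were compared with the other 312 lung endothelial cells, with 5015 kept lung cells of E below 5, and with 307 brain endothelial cells found by the same rule without the Ednrb and Apln condition.

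All cells came from adult Nestin-GFP mice aged about 6 weeks, whose strain the labels give as C57BL/6, whereas the methods describe CD1 or mixed CD1 and C3H stock to which transgenic lines were bred. In these mice regulatory sequence of Nes, the gene for the intermediate filament nestin, drives green fluorescent protein (GFP), and GFP+ cells were sorted from trypsin-digested brain or lung without further treatment. Each library was a single biological replicate. The libraries were made to describe the neural stem cells of each tissue, for which the reporter served as the means of enrichment, and the sort limits every group to cells in which the reporter was on.

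Lung alveoli are served by a pair of capillary endothelial cell kinds. Aerocytes, marked by Car4, Ednrb and Apln, are broad thin cells across which gas is exchanged, while general capillary cells, marked by Gpihbp1, Plvap and Aplnr, renew the capillary bed. Arteries carry a different set of genes, among them Gja5 and Gja4, which encode gap junction proteins. Endothelin receptor type B binds endothelins on endothelium and clears them from the blood, and apelin acts on the receptor encoded by Aplnr.

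Each tissue was 1 library, so there is no replicate and no test, and every ratio below describes these libraries. Levels are counts-per-million (CPM), the UMIs of a gene summed over the cells of a group and scaled to the group's total. The totals were 1532589 UMIs in the selected cells, 1741758 in the other lung endothelial cells, 28294089 in the cells with E below 5 and 1232522 in the brain endothelial cells. The median cell held 5675, 5332, 5587 and 3866 UMIs in these groups. Intervals on ratios and shares are exact 95% intervals that cover counting error only. An interval is narrower for a gene with more UMIs, so well-counted genes can more readily have intervals off 1. The shares over all genes given below were not matched for level. Of the barcodes, 15 occurred in both libraries, none of them among the selected cells. Scrublet, a doublet caller, marked 8 of the 251 selected and 6 of the 312 other cells, and these were kept.

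Ednrb alone did nearly all of the choosing. The selected cells held 1712 Ednrb UMIs, with 0 in the lowest cell, 5 in the median cell and 35 in the highest. Apln gave only 21 UMIs in 12 selected cells, and 3 selected cells had under 2 Ednrb UMIs. The remaining lung endothelial cells held 74 Ednrb and 7 Apln UMIs, which the rule fixed at no more than 1 a cell. Just inside the threshold lay 48 cells with 2 UMIs of the pair and just outside it 81 cells with 1 UMI, so the counts formed a slope without a gap. At the other threshold, 1 selected cell had an E of 5, and 1 cell that met every other condition had an E of 4. Ednrb (chr14:103814625-103844402, minus strand, GRCm38, GENCODE vM21) stood at 1117 CPM in the selected cells, 14.3 in cells with E below 5 and 1.62 in brain endothelium. Only 2 of 307 brain endothelial cells would have met the Ednrb and Apln condition.

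**Figure D1:**
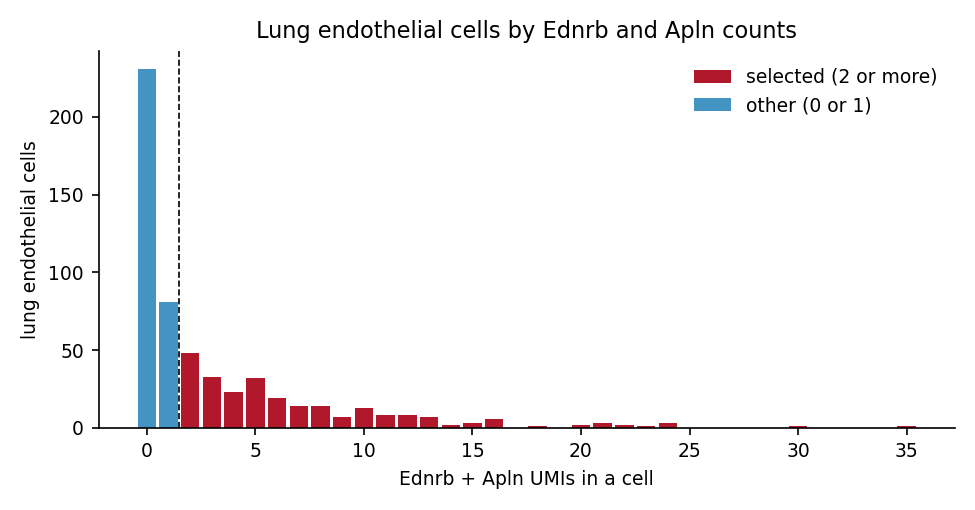
The x axis gives Ednrb and Apln UMIs in a cell and the y axis the number of lung endothelial cells, with selected cells (2 or more UMIs) in red and other cells in blue. The dashed line is the threshold between 81 cells with 1 UMI and 48 cells with 2.

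The name aerocyte did not hold for most of the selected cells. Car4, the membrane-bound carbonic anhydrase that marks aerocytes, was found in 15 of 251 selected cells (5.98%, 3.38 to 9.67) and in 18 of 312 other cells (5.77%, 3.45 to 8.96). No selected cell held more than 8 Car4 UMIs, and the median cell held 0. The level was 29.4 CPM from 45 UMIs in the selected cells and 39.6 from 69 UMIs in the others, a ratio of 0.741 (0.497 to 1.09). As a background, 17 of 5015 cells with E below 5 (0.339%) held the gene at a similar median depth. Brain endothelium, a known site of this enzyme, had Car4 in 226 of 307 cells. The order of the lung levels rests on 1 cell and on the threshold. In 1 other cell lay 20 of the 69 UMIs, and without that cell the ratio was 1.04 (0.676 to 1.59). Without the highest cell of each group it was 0.855 (0.543 to 1.34). With 1 UMI of Ednrb or Apln as the minimum, the Car4 ratio was 2.5 (1.57 to 4.14), and among cells of 3000 to 8000 UMIs it was 1.81 (1.05 to 3.17).

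No tested gene of the aerocyte list had an interval above 1. Of its 14 genes with counts, 9 reached 30 UMIs in both groups together, and none of these was at least 2-fold higher in the selected cells, against 0.933% of all 8683 genes tested. For 5 of the 9 the interval lay wholly below 1, against 7.51% of all genes. The median ratio of the list was 0.741 and that of all genes 0.988. Kdr, the main receptor for vascular endothelial growth factor, stood at 223 CPM against 328 (ratio 0.680, 0.593 to 0.778). Prx, a scaffold protein gene, had a ratio of 0.589 (0.398 to 0.861), and Pmp22, a membrane protein gene, one of 0.583 (0.471 to 0.720). Tbx2, a T-box transcription factor gene, was close to even at 0.959 (0.679 to 1.35). Fibin, with 17 against 7 UMIs, fell short of the 30 UMI minimum, and Rprml had none. The whole list summed to 2765 UMIs in the selected and 3484 in the other cells, a ratio of 0.902 (0.858 to 0.948). Nrp1, the gene for the co-receptor neuropilin 1 found widely in endothelium, supplied 1538 and 1651 of these UMIs at a ratio of 1.06 (0.987 to 1.14). Without it the list stood at 0.761 (0.707 to 0.818), and the median selected cell held 3 of the remaining UMIs and the highest 81.

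Genes of the general capillary list went in opposite directions. Gpihbp1, which anchors lipoprotein lipase to the capillary wall, was found in 88 of 251 selected and 161 of 312 other cells, at 301 against 590 CPM (ratio 0.511, 0.457 to 0.571). Sema3c, a secreted semaphorin gene, was much lower, at 46.3 against 249 CPM (0.186, 0.143 to 0.240). The growth factor receptor gene Kit stood at 0.495 (0.375 to 0.65) and the lipase gene Lpl at 0.530 (0.345 to 0.802). Plvap, which forms the diaphragms of endothelial pores, was even at 1.05 (0.973 to 1.12). Cxcl12, the chemokine that binds CXCR4, lay the other way, at 6542 against 3673 CPM (1.78, 1.73 to 1.84). Its per-cell counts had a median of 37 and a highest of 131 in the selected cells, against 13 and 92 in the others, so the groups overlapped widely. Of 11 list genes tested, 2 were at least 2-fold lower, against 1.65% of all genes, while 6 had intervals below 1, against 7.51%, and 3 above, against 5.52%. The summed list had a ratio of 1.27 (1.24 to 1.30), the opposite side of 1 from its median of 0.912, where Cxcl12 supplied 10026 of its 18441 UMIs. Without Cxcl12 the sum had a ratio of 0.948 (0.921 to 0.976).

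Artery genes were present in nearly all of these cells. At least 3 of the 9 artery list genes were found in 239 of 251 selected cells (95.2%, 91.8 to 97.5) and in 286 of 312 other cells (91.7%, 88.0 to 94.5). In brain endothelium the share was 12.1% and in lung cells with E below 5 it was 2.39%. The gap junction gene Gja5 was found in 150 selected cells (59.8%) at 349 CPM and in 185 other cells at 386 CPM, a ratio of 0.903 (0.805 to 1.01). Only 1 of 307 brain endothelial cells and 42 of 5015 cells with E below 5 held a Gja5 UMI. Gja4, the other gap junction gene of the list, stood at 1321 against 1017 CPM (1.30, 1.22 to 1.39). Fbln5, an elastic fibre protein gene, was at 2349.6 against 1488 CPM (1.58, 1.5 to 1.66), with 12 UMIs in the median selected cell and 4 in the median other cell. Bmx, a cytoplasmic kinase gene, had a ratio of 1.38 (1.15 to 1.64) and Sox17, an artery transcription factor gene, one of 1.20 (1.11 to 1.30). Of the 9 genes 4 had intervals above 1, against 5.52% of all genes, none had one below, and none passed 2-fold. The list summed to 6992 against 5647 CPM (1.24, 1.20 to 1.27), with a median gene ratio of 1.09. At least 6 of the 9 genes were found in 196 selected cells (78.1%, 72.5 to 83.05) and in 191 other cells (61.2%, 55.6 to 66.7).

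**Figure D2:**
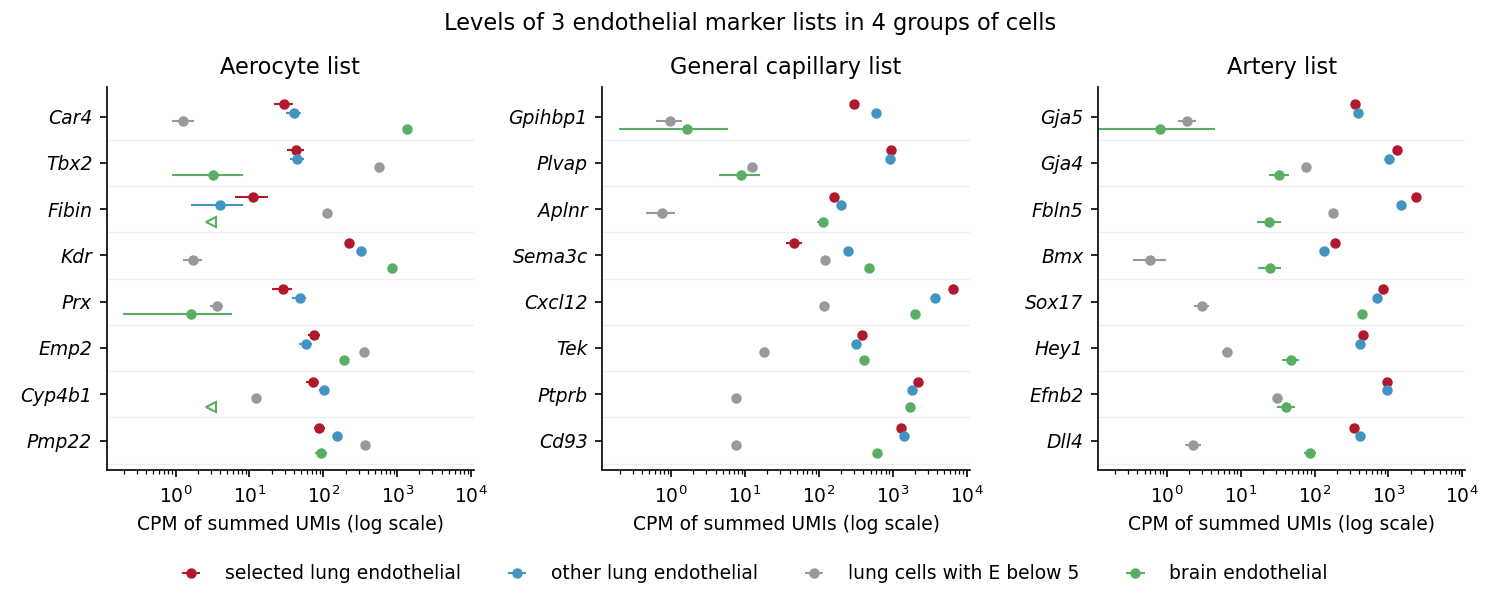
Each point is the CPM of a gene in 1 group of cells on a log scale, with bars for the exact 95% counting interval and open triangles at the upper limit where no UMI was found. Car4 lies near 30 to 40 CPM in both lung endothelial groups and above 1000 in brain endothelium, while Gja5 lies between 349 and 386 CPM in both lung endothelial groups and below 2 elsewhere. Dll4, in the artery panel, is not one of the 9 genes counted as the artery list.

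The 15 selected cells with a Car4 UMI, a division made after the values were seen, held 14 of the 17 Fibin UMIs of the selected cells, but these came from 3 cells, with 9 in 1 of them. Of the 65 Tbx2 UMIs 29 lay in 7 of the 15 cells, with 12 in the highest. Of the 115 UMIs of Emp2, an epithelial membrane protein gene, 62 lay in 6 of them, with 25 in the highest. Kdr stood at 995 CPM in these 15 cells and at 170 CPM in the other 236. Gpihbp1 was found in 14 of the 15, at 1796 against 199 CPM, so markers of both capillary kinds occurred in the same cells. At least 3 artery list genes were found in 10 of the 15 cells (66.7%, 38.4 to 88.2) and in 229 of the 236 (97.0%, 93.98 to 98.8). Sox17 was found in 12 of the 15, Efnb2, an ephrin ligand gene of arteries, in 10 and Gja4 in 9. None of the 15 had a Gja5 or Bmx UMI, whereas 150 of the 236 had Gja5. Fbln5 stood at 112 against 2503 CPM, Cxcl12 at 1776 against 6869, and Stmn2, a tubulin-binding protein gene, at 650 against 2506. Median depth was alike, at 5738 and 5661 UMIs, and 2 of the 15 cells were Scrublet calls. The other lung endothelial cells were divided in part alike. Their 18 cells with Car4 held 2 of the 673 Gja5 UMIs and no Bmx UMI, with Fbln5 at 48.9 against 1597 CPM and Cxcl12 at 922 against 3881 CPM in the 294 cells without Car4. Kdr stood there at 399.7 against 323 CPM and Gpihbp1 at 963 against 562 CPM, and the 18 cells held no Fibin UMI.

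Fabp4, which encodes a fatty acid carrier of capillary endothelium, was also held by few cells. Its 1780 UMIs in the selected cells came from 23 cells, with 307 in the highest cell, and 8 of the 15 Car4 cells held 1178 of them. In the other lung endothelial cells 46 cells held 2088 UMIs, and the ratio of the groups was 0.969 (0.909 to 1.03). Cd36, a fatty acid transporter gene, stood at 1127 CPM in the Car4 cells and 324 in the remaining selected cells. Taking a Car4 UMI or at least 5 Fabp4 UMIs as the mark, 26 of 251 selected cells (10.4%, 6.88 to 14.8) carried it. Of the genes of the rule, given as a description, Ednrb stood at 853 CPM with Car4 and 1135 without, and Apln at 142 CPM (14 of its 21 UMIs, in 6 cells) with Car4 and 4.88 CPM without. In the other lung endothelial cells Apln stood at 32.6 CPM with Car4 and 1.85 CPM without, from 4 and 3 UMIs.

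**Figure D3:**
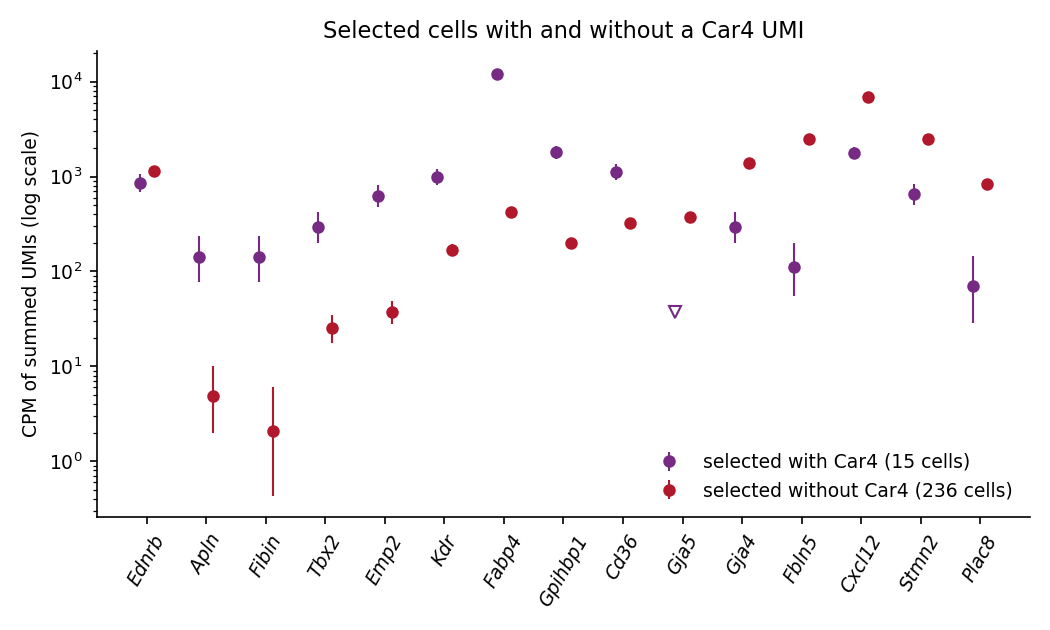
Each point is the CPM of a gene on a log scale in the 15 selected cells with a Car4 UMI (purple) or the 236 without (red), with exact 95% counting intervals and an open triangle at the upper limit where no UMI was found. Fibin, Tbx2, Kdr, Fabp4 and Gpihbp1 lie higher in the purple group, and Gja5, Gja4, Fbln5, Cxcl12, Stmn2 and Plac8 lower.

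Differences of at least 2-fold between the selected and the other lung endothelial cells were few. Among the 8683 genes tested, 81 (0.933%) were at least 2-fold higher and 143 (1.65%) at least 2-fold lower. Intervals lay above 1 for 479 genes (5.52%) and below 1 for 652 (7.51%). The genes named here were ranked by the interval bound nearest to 1, which puts well-counted genes first. Plac8, a small cysteine-rich protein gene, was found in 187 of 251 selected and 129 of 312 other cells, at 788 against 403 CPM (1.95, 1.78 to 2.15). Atp13a3, a polyamine transporter gene, was found in 183 against 141 cells, at 667 against 264 CPM (2.53, 2.26 to 2.83). Wfdc1, a secreted protease inhibitor gene, was at 329 against 155 CPM (2.12, 1.83 to 2.47), and after each cell was thinned to 1000 UMIs it was found in 24.7% against 12.8% of cells. The receptor gene Fgfr3 had a ratio of 2.28 (1.78 to 2.95) and the adhesion protein gene Flrt2 one of 2.86 (1.84 to 4.56). Cdo1, which encodes the enzyme that oxidises cysteine, was low in both, with 39 against 10 UMIs (4.43, 2.17 to 9.96). Plac8 and Atp13a3 did not owe their ratios to 1 cell, since the highest selected cell held 31 of the 1207 Plac8 UMIs and 25 of the 1023 Atp13a3 UMIs. No selected cell held more than 10 Wfdc1 UMIs. For Fgfr3, Flrt2 and Cdo1 the highest cell is not given here.

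Other genes at the head of the list came from 1 or a few cells. The adult globin genes Hba-a1, Hbb-bs and Hbb-bt had ratios of 179, 128 and 197, but 1 selected cell held 7494 of the 7684 red cell list UMIs (97.5%). Near-identical globin copies also make the split between these genes uncertain. The smooth muscle genes Acta2, Actg2 and Tagln had ratios of 5.31, 5.93 and 3.18, and 3 selected cells held 80.4% of the 811 smooth muscle list UMIs. Without the cells that held at least 10 UMIs of either list, 8 selected and 6 other, Hbb-bs stood at 1.11 (0.677 to 1.81), Acta2 at 0.819 (0.516 to 1.29) and Tagln at 1.09 (0.637 to 1.88). Meg3, a long noncoding RNA, had 82 of its 138 UMIs in 1 selected cell and 49 UMIs in the other cells, a ratio of 3.20 (2.29 to 4.53). Without those 14 cells the ratio was 4.10 (2.78 to 6.19), but 119 UMIs were left, so the cell with 82 had stayed in. Rgs5, a pericyte gene, had 41 of 81 UMIs in 1 selected cell, against 20 in the other cells, a ratio of 4.603 (2.79 to 7.93). Without those 14 cells the ratio was 9.75 (4.87 to 22.2), with 75 against 9 UMIs left, so the cell with 41 had stayed in. Among cells with none of the 8 pericyte and fibroblast rule genes the Rgs5 ratio was 1.03 (0.325 to 3.10). The embryonic globin gene Hbb-y differed from the adult globins. Its 40 UMIs came from 21 selected cells with at most 7 in a cell, against 5 UMIs in 4 other cells (ratio 9.09, 3.59 to 29.5), and the ratio was 9.36 without the same 14 cells. In the 5015 cells with E below 5 there was 1 Hbb-y UMI.

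The leading genes on the lower side were of both kinds. Sema3c, given above, and Esm1, a secreted proteoglycan gene of growing vessel tips, were spread over cells. Esm1 was found in 26 selected and 71 other cells, at 42.4 against 175 CPM (0.242, 0.182 to 0.317). Mgp, a calcification inhibitor gene, stood at 578 against 1413 CPM (0.409, 0.378 to 0.442), with highest cells of 149 and 207 UMIs and a median cell of 0 in both groups. Piezo2, a mechanically gated channel gene, had a ratio of 0.334 (0.229 to 0.479), and Peg3, an imprinted zinc finger gene, one of 0.350 (0.245 to 0.492). Gkn3, known from artery endothelium of the brain, was found in 12 against 30 cells (0.234, 0.137 to 0.382). In contrast, 30 of the 31 Trbc1 and 25 of the 29 Cd74 UMIs of the other cells lay in 1 cell each. The matrix genes Dcn, with 50 of 145 UMIs in 1 other cell (0.157, 0.0930 to 0.251), and Lum, with 21 of 36 (0.126, 0.0326 to 0.352), lay between these kinds. Without the cells rich in red cell or smooth muscle RNA, Dcn had 17 against 95 UMIs (0.209, 0.117 to 0.353) and Lum 3 against 15 (0.234, 0.0434 to 0.827).

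**Figure D4:**
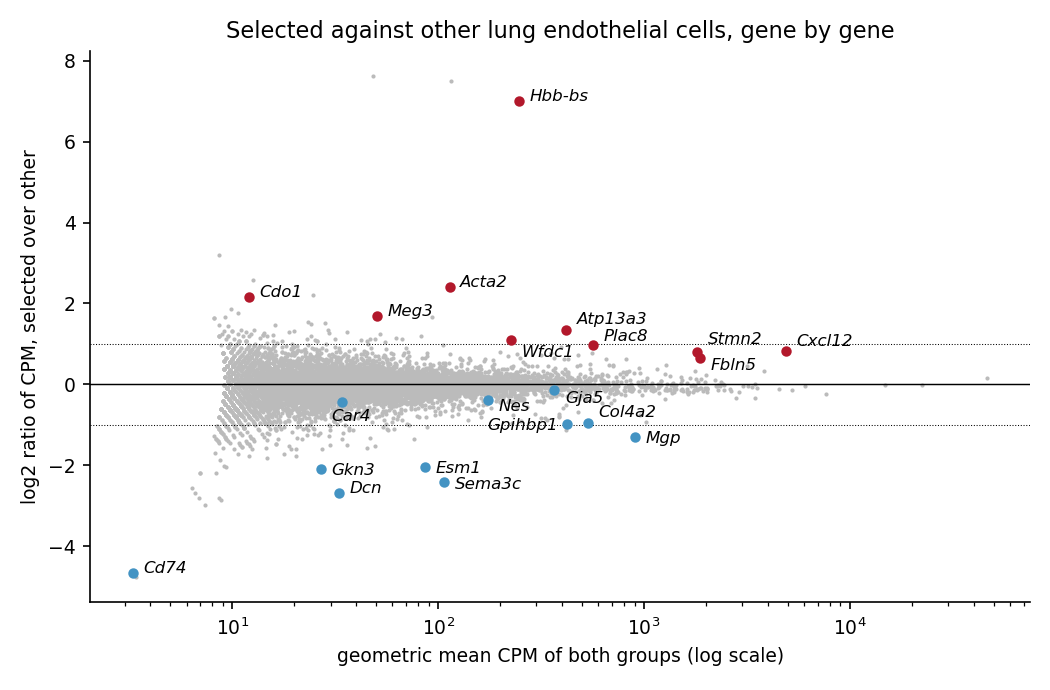
Each grey point is a gene with at least 30 UMIs and with counts in both groups, with the geometric mean CPM of both groups on the x axis (log scale) and the log2 ratio of selected over other lung endothelial cells on the y axis. Dotted lines mark 2-fold, and the named genes include the globin and smooth muscle genes of a few cells at the top and Sema3c, Esm1 and Dcn at the bottom.

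Several of these levels were graded with the Ednrb count, which is also the value that the rule used. Plac8, Wfdc1, Sema3c and Esm1 were named for differing across the threshold, so their difference between lower and upper bins was fixed in advance. For every gene only the order of bins within each side of the threshold adds to its ratio. The 563 lung endothelial cells were placed in 5 bins of 0, 1, 2 to 4, 5 to 9 and 10 to 35 UMIs of Ednrb and Apln, which held 231, 81, 104, 86 and 61 cells. Median depth ranged over the same bins from 5198 UMIs in the lowest to 6107 in the highest. Cxcl12 stood at 3566, 3957, 5624, 6722 and 7736 CPM from the lowest bin to the highest. Plac8 went from 363 to 966 CPM and Wfdc1 from 140 to 473 CPM, with every bin above the one before. Lyve1, a hyaluronan receptor gene, went from 651 to 1469 CPM. Gpihbp1 lay the other way, at 577, 625, 460, 275 and 89.4 CPM, so its level differed more among the selected cells than between the first bins. Esm1 ran at 160, 216, 81.6, 22.7 and 7.66 CPM, and the collagen gene Col4a2 at 666, 959, 535, 356 and 181 CPM. Sema3c had a break at the threshold instead, with 255 and 232 CPM below it and between 35.8 and 54.9 CPM above. Gja5 had no order, at 410, 323, 400, 286 and 355 CPM. Car4 was highest in the bin of 1 UMI, at 97.2 CPM, and lay between 18.1 and 35.8 CPM in all others.

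**Figure D5:**
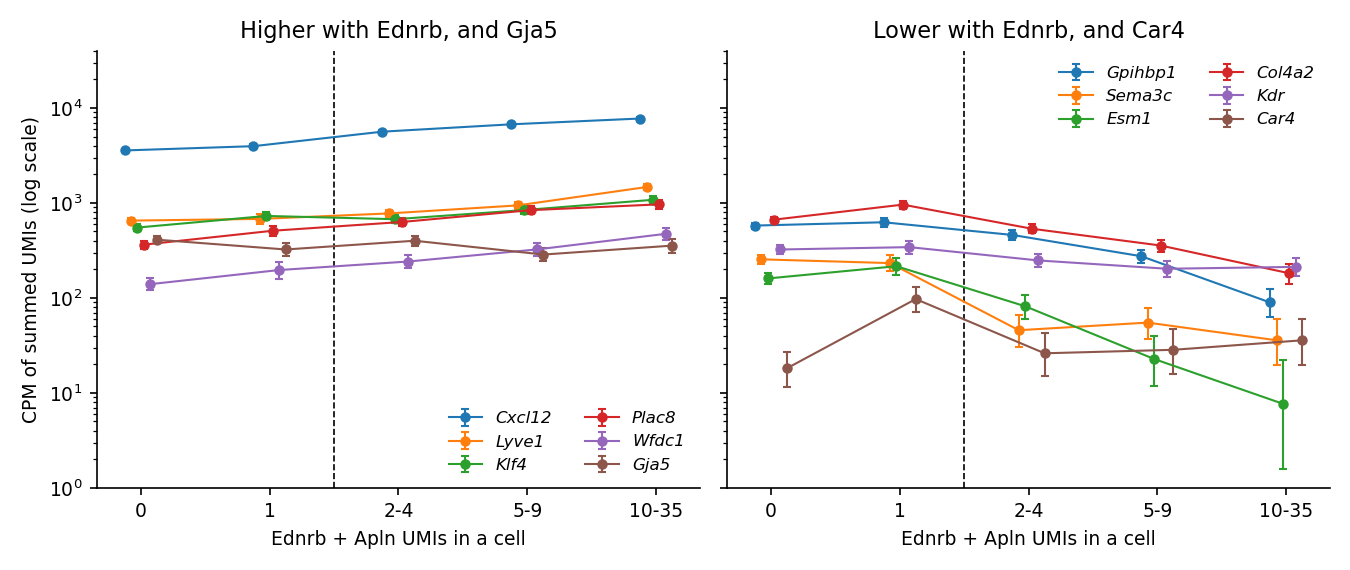
The x axis gives bins of Ednrb and Apln UMIs in a lung endothelial cell and the y axis the CPM of each gene on a log scale, with exact 95% counting intervals and a dashed line at the threshold. Cxcl12, Lyve1, Klf4, Plac8 and Wfdc1 end higher than they begin, Gpihbp1, Sema3c, Esm1 and Col4a2 end lower, and Gja5 and Car4 have no order.

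Genes of vessel tone surround the receptor that chose these cells. Edn1, the gene for the ligand endothelin 1, was found in 122 of 251 selected cells at 224 CPM, against 295 CPM in the other cells (0.760, 0.661 to 0.873). Ece1, which encodes the enzyme that cuts endothelin to its active form, stood at 535 against 629 CPM (0.85, 0.776 to 0.932). Ednra, the gene for the other endothelin receptor, which is a receptor of muscle and mesenchyme, was at 9.79 CPM in the selected cells and 321 CPM in the cells with E below 5. Aplnr, the apelin receptor gene, had a ratio of 0.812 (0.686 to 0.959). Nos3, which makes nitric oxide, stood at 64.6 against 44.8 CPM (1.44, 1.06 to 1.97), and Ace, the angiotensin-converting enzyme gene, at 838 against 742 CPM (1.13, 1.05 to 1.22). Of 14 vasoactive genes tested, 3 had intervals above 1 and 4 below, against 5.52% and 7.51% of all genes, none passed 2-fold, and the median ratio was 0.904.

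Of 21 genes of the transcription factor list tested, 6 had intervals above 1 and 6 below, against 5.52% and 7.51% of all genes. The pan-endothelial list, at a median ratio of 0.935, also had 1 interval above 1 and 5 below of 16 tested. The shares over all genes were not matched for UMIs to any of these lists. Klf2 and Klf4, genes of the list known to respond to blood flow, stood at 3726 against 2716 CPM (1.37, 1.32 to 1.43) and at 835 against 599 CPM (1.39, 1.28 to 1.51). Among the Notch list, the ligand genes Jag1 (1.20, 1.07 to 1.34) and Jag2 (1.67, 1.18 to 2.39) and the target gene Hes1 (1.34, 1.16 to 1.56) had intervals above 1. The ligand gene Dll4 lay below, at 0.825 (0.736 to 0.925). Of the 11 Notch genes tested 3 thus had intervals above 1 and 1 below, against 5.52% and 7.51% of all genes, and the median ratio was 1.14. In the TGF-beta and BMP list 6 of 15 genes tested had intervals above 1 and 3 below, against the same 5.52% and 7.51%. Tgfb2, a TGF-beta ligand gene, stood at 1.51 (1.24 to 1.83) and the BMP target Id2 at 1.33 (1.19 to 1.49), while Eng, a co-receptor gene, stood at 0.761 (0.693 to 0.835) and the ligand gene Bmp6 at 0.357 (0.164 to 0.720).

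No basement membrane gene had an interval above 1. Of 14 genes tested, 7 had intervals below 1, against 7.51% of all genes, and the median ratio was 0.798. Col4a1 and Col4a2, which encode the chains of type IV collagen, stood at 737 against 1248 CPM (0.590, 0.549 to 0.634) and at 383 against 746 CPM (0.514, 0.465 to 0.567). Sparc, a collagen-binding protein gene, was at 0.795 (0.763 to 0.829) and Hspg2, the perlecan gene, at 0.712 (0.577 to 0.876). The laminin genes Lama4 and Lama5 stood at 1.20 (0.931 to 1.55) and 0.958 (0.716 to 1.28), with intervals that include 1. The angiogenic list had 3 of 6 genes tested with intervals below 1, against 7.51% of all genes, and none above, namely Esm1, Dll4 and Plaur, the urokinase receptor gene.

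Of 5 gas exchange and water genes tested, Car4 included, 2 had intervals above 1, against 5.52% of all genes, and 1 below, against 7.51%. Car8, a carbonic anhydrase-related gene, had 61 against 24 UMIs in 34 and 13 cells (2.89, 1.77 to 4.84). Car2, the cytosolic carbonic anhydrase gene, lay lower, at 163 against 317 CPM (0.514, 0.441 to 0.598). Aqp1, the water channel of red cells and endothelium, stood at 1389.8 against 1157 CPM (1.20, 1.13 to 1.28). The junction gene Jam2 had a ratio of 1.68 (1.46 to 1.94), with Tjp1, the gene of a junction scaffold, even at 0.979 (0.887 to 1.08). The class I histocompatibility list also holds peptide processing and transport genes such as Psmb9 and Tap1. Of its 10 genes 4 had intervals below 1, against 7.51% of all genes, and none above, with a median ratio of 0.869.

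Markers of veins and lymphatics were in part present. Vwf, the von Willebrand factor gene, stood at 910 against 733 CPM (1.24, 1.15 to 1.34), and the vein genes Nr2f2 and Slc6a2 were at 34.6 and 0.652 CPM in the selected cells. Of 5 vein list genes tested 1 had an interval above 1 and none below, against 5.52% and 7.51% of all genes. The median ratio of these genes was 0.899. Lyve1, often used for lymphatics, was at 1009 against 659 CPM (1.53, 1.42 to 1.66), but Prox1, the regulator that defines lymphatic endothelium, had 1 UMI in all selected cells and Mmrn1, Ccl21a, Reln and Pdpn had 0. Of 2 lymphatic list genes tested 1 had an interval above 1 and 1 below, against 5.52% and 7.51% of all genes. The lower of them was Flt4, at 0.548 (0.361 to 0.820) without cells rich in red cell or smooth muscle RNA.

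Nes, the gene behind the reporter, was not a mark of the selected cells. It was found in 128 of 251 selected cells (51.0%) with at most 10 UMIs in a cell, at 153 against 200.9 CPM in the other lung endothelial cells (0.763, 0.644 to 0.903). Cells with E below 5 stood at 378 CPM and brain endothelium at 356 CPM. Among cells of 3000 to 8000 UMIs the ratio of selected to other cells was 0.915 (0.740 to 1.13).

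RNA of other cell types was low in most selected cells. The median selected cell held 0 UMIs of the pericyte, smooth muscle, red cell and leukocyte lists and 4 of the fibroblast list. The pericyte list of 11 genes summed to 280 CPM in the selected and 237 CPM in the other cells, with 62 UMIs in the highest selected cell. The fibroblast list of 10 genes stood at 1127 against 1471 CPM, with 98 and 528 UMIs in the highest cells. Of the leukocyte list 6 of 10 genes were at 0 in the selected cells, and of the alveolar epithelial list 9 of 12. The rule itself held pericyte and fibroblast UMIs below E, and their part in the ratios above was not tested beyond the cells left out. In the 158 selected cells with none of the 8 pericyte and fibroblast rule genes, against the 221 other cells without them, the artery list ratio stayed within its interval. The general capillary list ratio left its interval there, and Acta2 was lower in the selected cells. Tagln stood at 0.412 and Rgs5 at 1.03.

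Against the 5015 lung cells with E below 5, the contrast that the rule itself fixed, differences were large. Of 13941 genes, 1552 (11.1%) were at least 2-fold higher and 3649 (26.2%) at least 2-fold lower in the selected cells, and the median ratio of all genes was 0.921, a log2 shift of -0.12. All 16 pan-endothelial list genes and all 9 artery list genes were at least 2-fold higher, with median ratios of 60.3 and 30.05. Lyve1 led, at 1009 against 1.31 CPM, followed by Stmn2 at 2387 against 4.70 CPM. Myct1, an endothelial gene of unsettled role, stood at 296 against 0.672 CPM, and Sox18, a transcription factor gene of vessels, at 457 against 1.48 CPM. Ptprb, an endothelial phosphatase gene, was found in 97.2% of selected cells and stood at 2166 against 7.60 CPM.

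The lower side of that contrast held the genes of the cells left outside the rule. The collagen gene Col1a2 stood at 147 against 6428 CPM, the small proteoglycan gene Dcn at 13.0 against 1634 CPM, and Gucy1a3, a subunit of the nitric oxide receptor, at 48.3 against 2325 CPM. Sftpc, the surfactant protein gene of alveolar type 2 cells, had 9 UMIs in the selected cells. All 11 pericyte and all 7 smooth muscle genes were at least 2-fold lower, against 26.2% of all genes. The aerocyte list had 6 genes at least 2-fold higher and 4 at least 2-fold lower of 13 tested, against 11.1% and 26.2% of all genes. Tbx2, Fibin and Pmp22 were among those lower, at 576, 113 and 365 CPM in the cells with E below 5 against 42.4, 11.1 and 88.7 CPM in the selected cells.

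Against brain endothelium, tissue and library cannot be told apart. Of 8525 genes, 914 (10.7%) were at least 2-fold higher and 953 (11.2%) at least 2-fold lower in the selected lung cells. Hpgd, which encodes the enzyme that inactivates prostaglandins, had 2544 UMIs in the selected cells and none in brain endothelium, at least 682-fold higher against a floor of 3 counts over the group. Plac8, Abi3bp, a matrix protein gene, Hoxa5, a positional transcription factor gene, and Cd36 also had no UMI in brain endothelium, with ratios of at least 324, 209, 168 and 154. Aqp1 was found in 95.2% of selected cells and had 1 UMI in brain endothelium. Artery list genes were at least 2-fold higher for 8 of 9, against 10.7% of all genes, with a median ratio of 22.8.

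Several transporter genes of the blood-brain barrier that led the lower side had at most 1 UMI in the selected cells. Slco1a4, an organic anion transporter gene, had 2704 UMIs in brain endothelium and 0 in the selected cells, at least 1121-fold lower. The amino acid transporter genes Slc7a5 and Slc38a5 and the lipid transporter gene Mfsd2a were also at 0, at least 326-fold, 246-fold and 208-fold lower. Slco1c1, the thyroid hormone carrier gene, and Slc16a1, a lactate carrier gene, had 1 UMI each in the selected cells, against 2154 and 1128 in brain endothelium. Immediate early genes, which are known to respond to tissue dissociation, were at least 2-fold higher for 9 of 12 in the lung cells, against 10.7% of all genes, and their part in the tissue contrast was not tested.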

How the data were processed

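Nes-GFP+ cells of brain and lung were captured on a 10x Genomics Chromium system (v3 chemistry), 1 library per tissue. The deposited tables hold UMI counts per gene and cell barcode, not normalized by the authors. The submitters' processing notes name bcl2fastq 2.19.1.403, UMI-tools 1.0.0, STAR 2.7.1a, featureCounts 1.6.4 and the mm10 build. Neither the gene annotation used nor how barcodes were called is given in the sources used here. Collapsing reads to UMIs removes amplification copies, and counts of genes with near-identical copies can be split or lost.

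Cells with more than 200 and fewer than 4000 genes and under 40% of counts in mt- genes were kept, as in the methods, since the tables still held barcodes outside that filter. Doublets were kept, and Scrublet (scanpy 1.11.5, expected rate 0.06) was run as a check. Counts were summed per group and scaled to CPM. Ratios carry exact conditional binomial intervals and shares Clopper-Pearson intervals at 95%, for counting error only (scipy 1.17.1, numpy 2.4.6, python 3.11.15). With 1 library per tissue no test was made and no p-value is given. Genes needed 30 UMIs in the 2 groups together to be counted, called means a 2-fold ratio, and a 0 was set against a floor of 3 counts over the group. Named genes were the 15 on each side whose interval bound nearest to 1 lay farthest from it (10 for the comparisons with cells of E below 5 and with brain), apart from rule genes, mt-, Rpl and Rps genes, together with genes of 30 marker and pathway lists. Shares after thinning used 1000 UMIs a cell. The calculation of ratios was tested on simulated data drawn without variation between cells. That test therefore does not cover genes whose counts gather in a few cells. The members and the lists were chosen with earlier results of these data known. The division by Car4 and Fabp4, the Car4 ratios without the highest cells, the list sums without their leading gene, the comparison without cells rich in red cell or smooth muscle RNA and the artery list ratio were added after seeing the data. Gene positions are from GENCODE vM21 (GRCm38).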

Additional observations from a re-analysis of the deposited data

Results flagged for a closer look

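Outside the cell filter, 34 lung barcodes met every other condition of the rule, and the comparisons did not use them. All 34 had 4000 genes or more, with medians of 4540 genes and 14772.5 UMIs. Their Ednrb level was 568 CPM and their Car4 level 62.1 CPM. Gja5 stood at 460.2 CPM and Cxcl12 at 4359 CPM in these barcodes. Their Apln level of 54.8 CPM, from 30 UMIs, exceeded the 13.7 CPM of the selected cells. Whether a barcode with so many genes held more than 1 cell was not tested.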

How the results depend on the processing

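The Car4, list and Nes ratios and the counts of genes were recomputed under 19 alternatives, 4 of them chosen after seeing the data, of which 2 were for Car4 and 1 for the list sums alone. Of the ratios and counts that answer a comparison, 120 values under an alternative stayed within the interval or within 1.5 times of the count given and 24 lay outside. A further 5 ratios, whose interval had excluded 1, lay on the other side of 1. Of these 4 came with Apln alone, which left 5 cells and is a description of those cells only, and 1 was the general capillary list at 0.948 without Cxcl12, its gene with the most UMIs. Without their own such genes, the aerocyte list (Nrp1) stood at 0.761 and the artery list (Fbln5) at 1.12. The Car4 ratio, whose interval includes 1, also lay above 1 with Apln alone, with the 1 UMI minimum, among cells of 3000 to 8000 UMIs, with no upper limit of genes (1.03) and without the other cell with the most Car4 UMIs (1.04). Leaving out Scrublet calls, weighing cells equally, E of at least 3 or 10 and under 20% mt- counts left all of these values within those limits.

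With 1 UMI of Ednrb or Apln as the minimum, the ratio was 2.5 for Car4, 0.955 for the aerocyte list, 1.22 for the general capillary list, 1.14 for the artery list and 5.69 for Cd74. With at least 4 UMIs, Hba-a1 stood at 0.00701, Hbb-bs at 0.0116, Hbb-bt at 0.00597, Actg2 at 0.985 and Meg3 at 0.866. With at least 2 UMIs of Apln alone, 5 cells were selected, 1276 genes were at least 2-fold higher and 3380 lower, and the ratios were 17.3 for Car4, 3.47 for the aerocyte list, 0.559 for the general capillary list, 0.182 for the artery list and 2.06 for Nes. In those 5 cells Hba-a1, Hbb-bt, Flrt2 and Fgfr3 stood at 0, Hbb-bs at 0.0457, Atp13a3 at 0.400, Wfdc1 at 0.512, Plac8 at 0.103, Piezo2 at 2.29, Peg3 at 1.04, Gpihbp1 at 3.35, Kdr at 3.00, Gja4 at 0.312, Fbln5 at 0.0636, Vwf at 0.0738, Klf2 at 0.560, Klf4 at 0.812, Lyve1 at 0.146, Cd36 at 1.72, Col4a1 at 2.38, Col4a2 at 2.74 and Sox17 at 0.397. With E of at least 10, Trbc1 stood at 1.10. Without any UMI of the 8 pericyte and fibroblast genes, 158 cells were selected, the general capillary list stood at 1.23, Acta2 at 0.893 and Tagln at 0.412. Among cells of 3000 to 8000 UMIs, Car4 stood at 1.81, the aerocyte list at 0.976, the general capillary list at 1.24, the artery list at 1.16, Nes at 0.915 and Hbb-bt at 0.965. A minimum of 100 UMIs left 24 genes higher and 29 lower than in other lung endothelial cells and 470 higher than in brain endothelium. With a minimum of 1 UMI these numbers were 2149, 2455 and 3480, and 2824 genes were higher than in cells with E below 5. Without cells rich in red cell or smooth muscle RNA, Hbb-bt stood at 0.780, Acta2 at 0.819 and Actg2 at 0.936. Apart from fewer cells or genes, the cause was not tested. No paired analysis was possible because each group came from 1 library. Genes of few counts, Car4 and Apln among them, are limited by depth, and 1 library per tissue limits every comparison.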
